A study of Mus musculus with 4 samples.

Results

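Cells hold on to the extracellular matrix through integrins, heparan sulfate proteoglycans and a few other receptors, and 36 genes of this machinery were followed in mouse neuroblastoma cells that overexpressed the transcription factor Zac1. They were chosen by symbol from 6 role groups: integrin alpha subunits, integrin beta subunits, other matrix receptors, syndecans, glypicans and focal adhesion proteins. The table analysed lists 31 of the 36, out of 12861 genes with a gene ID. Itga9, Itgb8, Sdc2, Gpc3 and Gpc4 were not analysed here. Of the 31 listed, 28 had a mean of at least 10 normalised counts over the 4 libraries and were tested, and Itga2, Itga4 and Sdc4 were below that minimum.

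The tested cells were Neuro-2A, a mouse neuroblastoma line labelled as of the Swiss Albino strain, transfected by lipofection with the plasmid pRK5-Zac1. The controls were Neuro-2A cells transfected with pRK5-CAT, which carries bacterial chloramphenicol acetyltransferase. Each group had 2 libraries from separate transfections, numbered 9 and 12, and total RNA was taken 16 h after transfection. Both groups thus share the line, the plasmid backbone and the transfection reagent, and all RNA comes from mixed cells, so a change in a share of cells cannot be told apart from a change in RNA per cell. The assay, digital gene expression (DGE), cuts polyadenylated transcripts with DpnII and counts short tags that begin at the cut.

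Integrins are pairs of an alpha and a beta subunit. The pair sets the ligand: alpha5 with beta1 binds fibronectin, alpha6 with beta4 binds laminin, and alphav pairs with several beta subunits to bind vitronectin and fibronectin. On the inner face of the membrane talin and kindlins bind the beta tail, and vinculin, paxillin, zyxin and the complex of ILK, PINCH and parvin link the receptor to actin and to focal adhesion kinase. Syndecans and glypicans are cell surface proteoglycans whose heparan sulfate chains bind matrix proteins and growth factors.

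The DGE tag is the unit behind every value, so predicted tags are shown for 3 members described below whose tag lies in coding sequence. They are the DpnII site nearest the 3′ end of a reference transcript and the next 16 bases, from the GENCODE mouse annotation of GRCm38, and the capitals mark the DpnII site GATC. Itgb4 is on chromosome 11, Cd47 on chromosome 16 and Tln1 on chromosome 4.
Itgb4: GATCtcctgcctaaccactc
Cd47: GATCatagctctagcagaac
Tln1: GATCcggcagcagcagtaca
These tags begin 1016, 353 and 496 bases from the end of the transcript for Itgb4, Cd47 and Tln1. The Cd47 reference transcript is only 1316 bases long, and a longer 3′ end could hold a later site and so another tag. Of the 36 genes, 32 had the predicted tag in the 3′ UTR and 4 in coding sequence. The tag was not the predicted tag of any other gene for 35 of them. The exception was Sdc4, whose predicted tag is also that of 3 other genes, so its counts are uncertain. Which tags the authors assigned to which gene is not given in the sources used here.

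Between 11578920 and 13840674 tags were recovered per library, and the listed members held between 0.197% and 0.220% of them. Plagl1, the gene that encodes Zac1, had 3497 and 1492 recovered counts in the Zac1 libraries and 0 in both CAT libraries. These counts do not separate the transfected copy from the cell's own gene. Noradrenergic and neuronal markers, checked against the labelled cell type, were listed for 14 of 16 genes, with summed normalised counts of 42301 and 46563 in the Zac1 libraries and 47309 and 50723 in the CAT libraries. Zac1 replicate 9 stood apart. The SD over genes of its log2 difference from the CAT libraries was 0.710 and 0.743, against 0.576 and 0.529 for Zac1 replicate 12. Its difference from CAT replicate 9 went with the GC content of transcripts (Spearman correlation of 0.340 across 11156 genes of the same libraries, which are not independent), and was 0.150 for Zac1 replicate 12.

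None of the 28 tested members passed as higher or lower in Zac1 cells (limma, Benjamini-Hochberg adjusted p, smallest 0.228), where 0.962% of all 11433 genes tested passed as higher and 0% as lower. With either Zac1 library left out, 1 gene of all those tested passed as higher. At an unadjusted p under 0.05, limma gave 3 members higher, namely Itga5, Itgb4 and Pxn, and 0 lower, against 5.23% and 0.962% of all genes. edgeR's quasi-likelihood test and DESeq2 on the recovered counts also called 0 members after adjustment, with 3 members each at an unadjusted p under 0.05. The median log2 fold change was 0.06 over the members and -0.01 over all genes tested. Of the members 15 had a fold change above 0, against 48.4% of all genes. With a minimum mean of 50, 12 of the 25 members then tested were above 0. When libraries were scaled to equal totals 21 of the 28 were, but that scaling also moved the median over all genes up to 0.05. The share of all genes above 0 under it was not computed. In 24 of the 28 the log2 fold change was under 0.5 in size, against 87.1% of all genes.

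**Figure D1:**
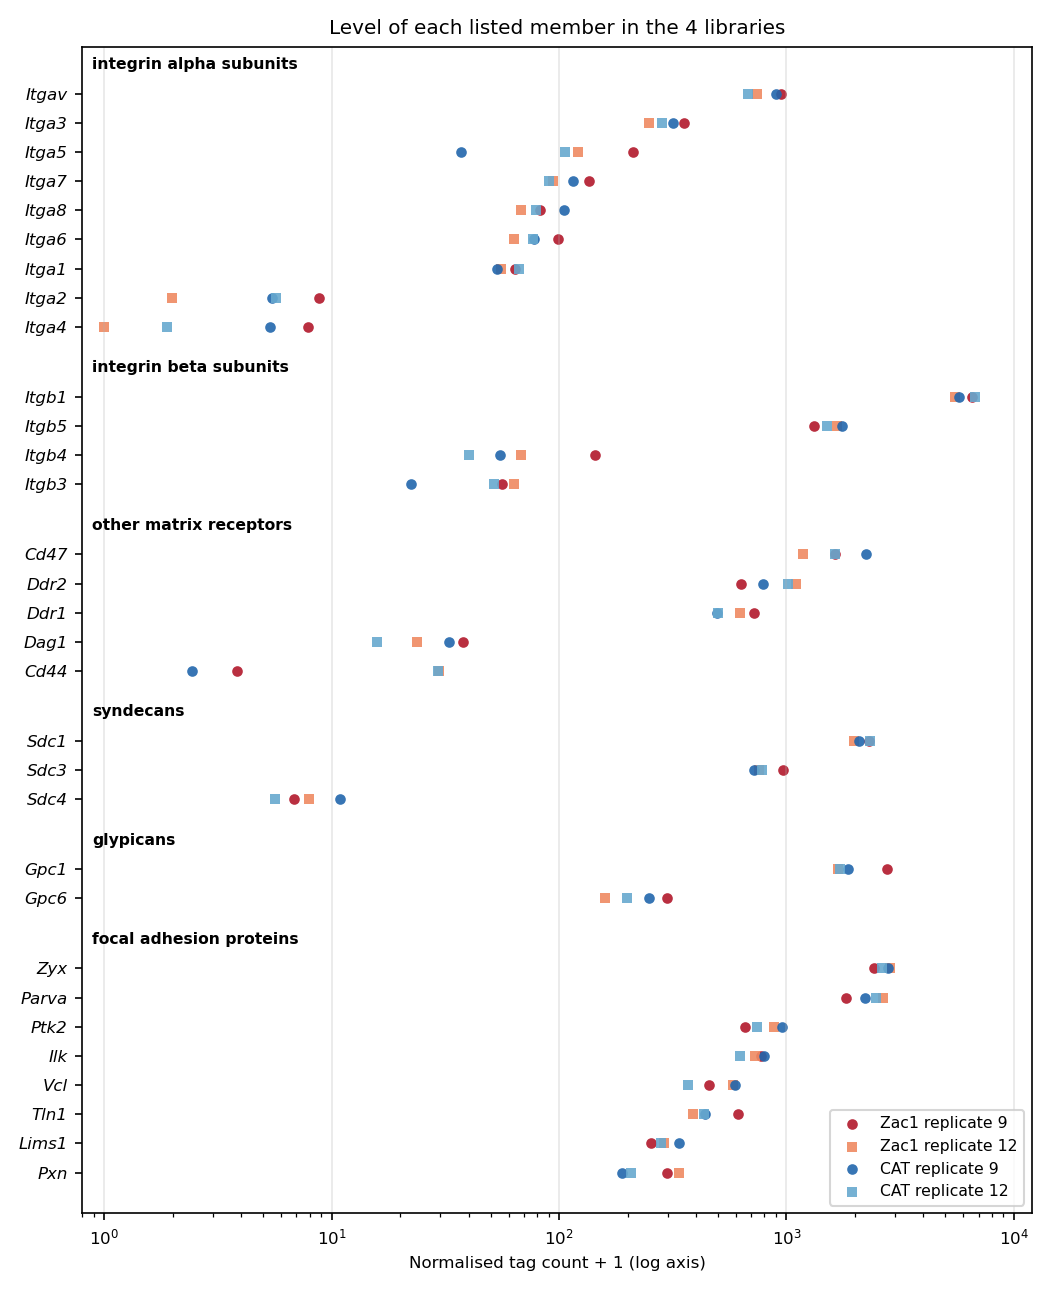
Normalised tag count plus 1 (log axis) of the 31 listed members in the 4 libraries, grouped by role and ordered by level within a role. Red and orange points are Zac1 replicates 9 and 12, dark and light blue points CAT replicates 9 and 12. Levels span from 0 counts of Itga4 in Zac1 replicate 12 to 6726 of Itgb1 in CAT replicate 12, and points of the groups mostly interleave.

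The integrin alpha subunits were led by Itgav and Itga3. Itgav, the alphav subunit, had a normalised count of 945 and 742 in the Zac1 libraries, against 901 and 679 in the CAT libraries. Its level was higher in both libraries numbered 9 than in both numbered 12, whichever plasmid was used, and its log2 fold change was 0.10 (95% interval -0.39 to 0.59). Itgav made up 49.7% and 53.5% of the summed normalised counts of the 9 listed alpha subunits in the Zac1 libraries, and 56.0% and 49.2% in the CAT libraries. Itga3, a laminin receptor subunit, was the second most abundant in each library, at 17.8% to 20.4% of the sum.

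Itga5 encodes the alpha subunit of the main fibronectin receptor. It had a normalised count of 209.9 and 119.6 in the Zac1 libraries, against 35.99 and 105 in the CAT libraries. The groups did not overlap, but Zac1 replicate 12 and CAT replicate 12 lay close together, and the low CAT replicate 9 held much of the difference. Its log2 fold change was 1.35 ± 0.42 (SE, n = 2 each; 95% interval 0.46 to 2.23) and did not pass (limma adjusted p = 0.228). Leaving out CAT replicate 9 gave 0.58, leaving out Zac1 replicate 9 gave 0.94 and leaving out Zac1 replicate 12 gave 1.75. It passed with CAT replicate 12 left out, at 2.11 (limma adjusted p = 3.35e-04). Over all alternatives the adjusted p ran from 3.35e-04 to 1.00. As a share of the alpha subunit sum Itga5 was 11.0% and 8.63% in the Zac1 libraries and 2.24% and 7.64% in the CAT libraries.

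The other alpha subunits showed no difference beyond the spread between libraries. Itga8, the alpha8 subunit, had a normalised count of 81.6 and 67.2 in the Zac1 libraries, against 104 and 77.8 in the CAT libraries, with a log2 fold change of -0.28 (95% interval -0.94 to 0.39). Itga1, a collagen receptor subunit, Itga6, a laminin receptor subunit, and Itga7, the laminin receptor subunit of muscle, lay between 52.3 and 135 normalised counts in all 4 libraries. Their log2 fold changes were -0.00 for Itga1, 0.04 for Itga6 and 0.15 for Itga7, and that of Itga3 was -0.01.

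A pair of alpha subunits had few counts. Itga2, a collagen receptor subunit, had 8 and 1 recovered counts in the Zac1 libraries, against 4 and 5 in the CAT libraries. Itga4, which pairs with beta1 or beta7 on leukocytes, had 7 and 0 counts in the Zac1 libraries, against 4 and 1 in the CAT libraries. The 0 of Itga4 in Zac1 replicate 12 stands against a total of 12811896 counts and allows up to 3 counts by counting error alone, so no difference between the groups was detectable at this depth.

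Among beta subunits Itgb1, the partner of many alpha subunits, was the most abundant in each library. Itgb1 had a normalised count of 6557 and 5526 in the Zac1 libraries, against 5739 and 6726 in the CAT libraries. The groups overlapped, with a log2 fold change of -0.05 (95% interval -0.49 to 0.40). Itgb5, an alphav partner that binds vitronectin, had a normalised count of 1316 and 1659 in the Zac1 libraries, against 1754 and 1509.8 in the CAT libraries, a log2 fold change of -0.14 (95% interval -0.60 to 0.32). Itgb1 and Itgb5 together left little for the rest: Itgb1 made up between 75.5% and 81.2% of the beta subunit sum in each library and Itgb5 between 16.3% and 23.2%.

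Itgb4 and Itgb3 were low in control cells and higher in both Zac1 libraries. Itgb4, the beta subunit of the laminin receptor of hemidesmosomes, whose tag is shown above, had a normalised count of 143 and 67.2 in the Zac1 libraries, against 54.2 and 39.3 in the CAT libraries. The groups did not overlap, Zac1 replicate 9 was about as far from Zac1 replicate 12 as the groups were from each other, and the log2 fold change was 1.07 ± 0.38 (SE, n = 2 each; 95% interval 0.26 to 1.87; limma adjusted p = 0.384). It was 0.53 without Zac1 replicate 9, 1.61 without the other Zac1 library and 0.90 with each library corrected for GC content, with an adjusted p of 0.0519 to 1.00 over all alternatives. Itgb3, the beta3 subunit that pairs with alphav, had a normalised count of 55.3 and 62.3 in the Zac1 libraries, against 21.4 and 50.9 in the CAT libraries. Here the Zac1 libraries were alike and the CAT libraries were not, and the log2 fold change of 0.81 (95% interval -0.10 to 1.71) was 0.20 without CAT replicate 9 and 1.41 without CAT replicate 12.

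**Figure D2:**
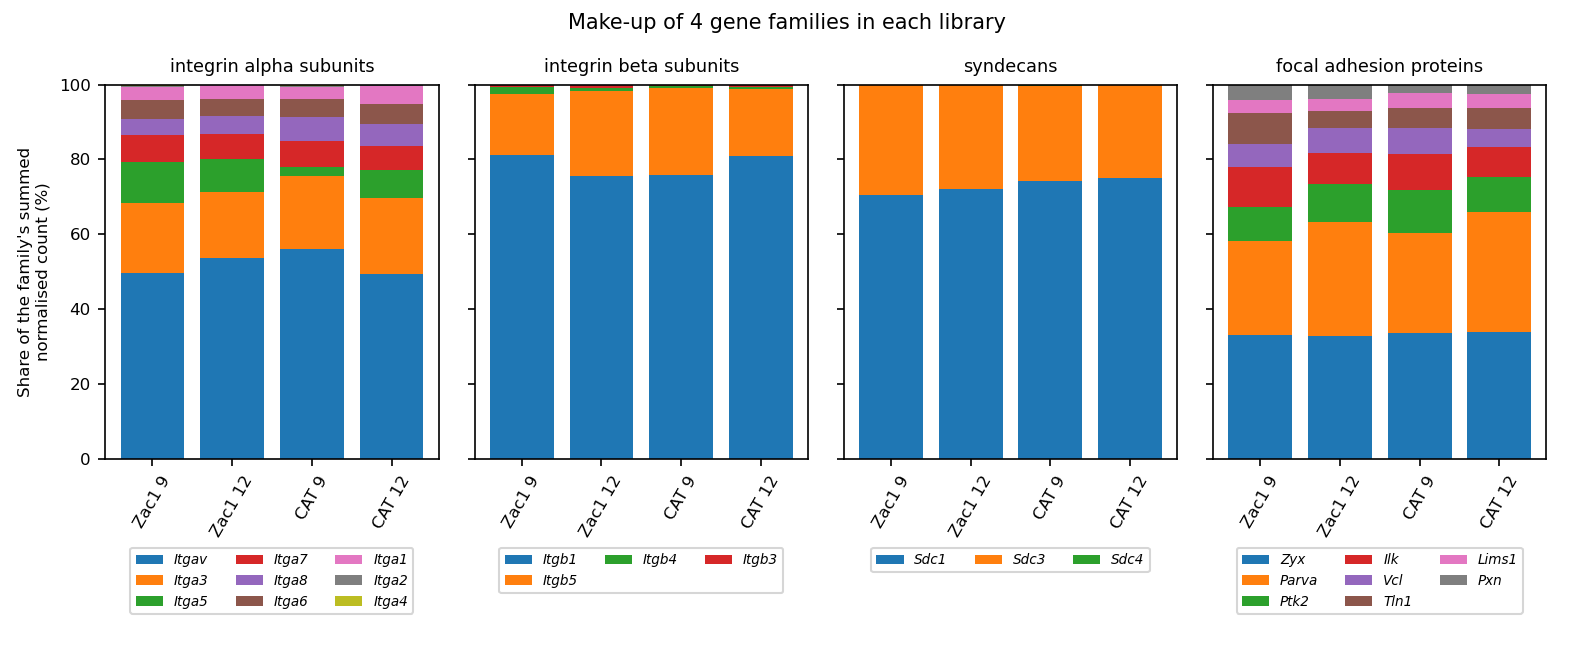
Share in percent of each member in the summed normalised count of its family, for 4 families, with a stacked bar per library in the order Zac1 replicates 9 and 12, then CAT replicates 9 and 12. Itgav, Itgb1, Sdc1 and Zyx are the largest segment of their family in each library. The Itga5 segment is thinnest in CAT replicate 9, at 2.24%. Larger segments also vary between libraries, such as Itgb5 from 16.3% to 23.2%.

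Beyond integrins, Cd47 was the most abundant of the other matrix receptors in each library. Cd47, a receptor for thrombospondin that also associates with integrins, had a normalised count of 1631 and 1179 in the Zac1 libraries, against 2233 and 1642 in the CAT libraries. It was the sole tested member whose Zac1 libraries both lay below both CAT libraries, though Zac1 replicate 9 and CAT replicate 12 differed by little. Its log2 fold change was -0.47 ± 0.23 (SE, n = 2 each; 95% interval -0.96 to 0.03; limma adjusted p = 0.883), and it was -0.23 without Zac1 replicate 12 and -0.24 without CAT replicate 9. Leaving out Zac1 replicate 9 gave -0.70, and leaving out CAT replicate 12 gave -0.69.

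The discoidin domain receptors are tyrosine kinases that bind collagen, and they differed in how their libraries fell. Ddr1 had a normalised count of 719.7 and 625 in the Zac1 libraries, against 496 and 499 in the CAT libraries. Both Zac1 libraries were above both CAT libraries, and the log2 fold change was 0.43 ± 0.22 (SE, n = 2 each; 95% interval -0.04 to 0.90; limma adjusted p = 0.898), which a correction for GC content put at 0.24; leaving out a library gave 0.33 to 0.53. Ddr2 had a normalised count of 630.3 and 1104 in the Zac1 libraries, against 785 and 1017 in the CAT libraries, so that both libraries numbered 12 lay above both numbered 9, and its log2 fold change was -0.10 (95% interval -0.66 to 0.46).

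Cd44, a receptor for hyaluronan, showed the widest spread of the tested members and is singled out after its values were seen. It had 3 and 29 recovered counts in the Zac1 libraries, against 1 and 30 in the CAT libraries. Both libraries numbered 12 had about the same count, and both numbered 9 were close to 0. The log2 fold change was 0.34, with a 95% interval of -1.996 to 2.67. That interval is too wide to tell whether the plasmid made a difference. The normalised count in replicate 12 was 10.2 times that of replicate 9 among the Zac1 libraries and 20.01 times among the CAT libraries. What the numbers 9 and 12 stand for is not given in the labels beyond separate transfections. Dag1, which encodes dystroglycan, a laminin receptor linked to dystrophin, ranged from 14.9 to 37.0 normalised counts over the 4 libraries and was higher in the libraries numbered 9 in both groups.

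Among the cell surface proteoglycans Sdc1, Sdc3 and Gpc1 were the abundant members, and none of them separated the groups. Sdc1, syndecan-1, had a normalised count of 2301 and 1976 in the Zac1 libraries, against 2091 and 2339 in the CAT libraries, with a log2 fold change of -0.05 (95% interval -0.50 to 0.39). Sdc3, the syndecan of neural tissue, had a normalised count of 961 and 757 in the Zac1 libraries, against 717 and 779.8 in the CAT libraries, with a log2 fold change of 0.19 (95% interval -0.28 to 0.66). For both genes the ranges of the groups overlapped. Sdc4, a syndecan of focal adhesions, had 6 and 7 recovered counts in the Zac1 libraries, against 9 and 5 in the CAT libraries, with the shared predicted tag noted above.

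Glypicans are anchored to the membrane by a lipid. Gpc1 had a normalised count of 2764 and 1684 in the Zac1 libraries, against 1869.6 and 1720.0 in the CAT libraries. Only Zac1 replicate 9 was high, Zac1 replicate 12 was the lowest of the 4, and the log2 fold change of 0.27 (95% interval -0.24 to 0.78) was -0.09 without Zac1 replicate 9. Gpc6 showed the same order within the Zac1 libraries, at 297 and 158, against 247 and 199 in the CAT libraries, with a log2 fold change of -0.03.

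Of the 8 focal adhesion genes, all were listed and tested, and 7 had a log2 fold change within 0.19 of 0, the largest of these being -0.19 for Lims1. Zyx, which encodes the actin regulator zyxin, was the most abundant, with a normalised count of 2416 and 2849 in the Zac1 libraries, against 2808 and 2630.2 in the CAT libraries. Parva, alpha-parvin, had a normalised count of 1828 and 2658 in the Zac1 libraries, against 2217 and 2481 in the CAT libraries. Neither gene separated the groups, and their log2 fold changes were -0.05 for Zyx and -0.09 for Parva.

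Ptk2 and Ilk are the members of this group with kinase in their names. Ptk2, focal adhesion kinase, had a normalised count of 658 and 882 in the Zac1 libraries, against 956 and 742 in the CAT libraries, a log2 fold change of -0.15 (95% interval -0.64 to 0.35). Ilk, integrin-linked kinase, had a normalised count of 775 and 725 in the Zac1 libraries, against 799 and 622 in the CAT libraries, a log2 fold change of 0.09 (95% interval -0.39 to 0.56). In both genes the ranges of the groups overlapped. Tln1, Vcl and Lims1, which encode talin-1, vinculin and the adaptor PINCH-1, ranged from 253 to 614 normalised counts over all libraries, with log2 fold changes of 0.16 for Tln1, 0.14 for Vcl and -0.19 for Lims1.

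Pxn was the exception among focal adhesion genes. Pxn, which encodes the scaffold protein paxillin, had a normalised count of 297 and 337 in the Zac1 libraries, against 188 and 206 in the CAT libraries. The groups did not overlap, replicates lay close together, and the value did not rest on Zac1 replicate 9, which was the lower of the Zac1 libraries. The log2 fold change was 0.68 ± 0.24 (SE, n = 2 each; 95% interval 0.17 to 1.19) and did not pass (limma adjusted p = 0.372). It stayed between 0.59 and 0.77 with any 1 library left out and was 0.51 under the GC correction, and its adjusted p ran from 0.188 to 1.00 over all alternatives. The transcripts of Pxn had a GC content of 59.4%, those of Itgb4 59.2%, those of Ddr1 60.04% and those of Itga5 55.6%. The median was 51.2% for all genes tested and 52.1% for the members. Itgb3, also higher in both Zac1 libraries, was at 51.6%. Members whose groups overlapped reached values as high, such as Zyx at 61.5% and Sdc3 at 60.4%. The GC correction moved their log2 fold changes too, from -0.05 to -0.28 for Zyx and from 0.19 to -0.011 for Sdc3. That of Itgb3 went from 0.81 to 0.84. The part of GC content in these differences was not tested beyond that correction.

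**Figure D3:**
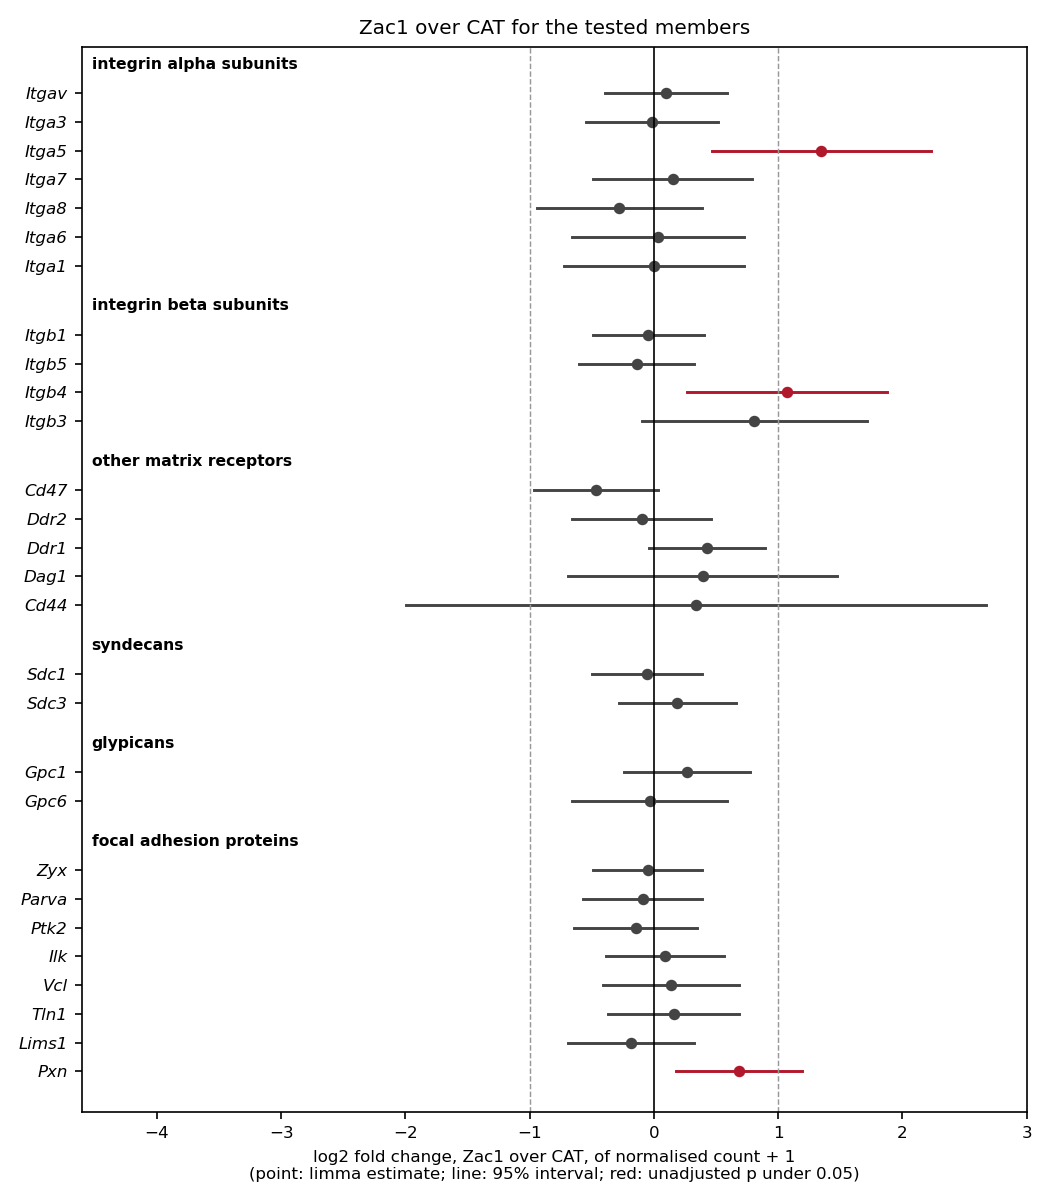
log2 fold change of Zac1 over CAT with its 95% interval (limma) for the 28 tested members, grouped by role, with dashed lines at a 2-fold difference. Red marks an unadjusted p under 0.05, which Itga5, Itgb4 and Pxn reached, and for 22 members the whole interval lies between the dashed lines.

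Levels were also summed by role group. The alpha subunits summed to a normalised count of 1900.3 and 1386 in the Zac1 libraries and 1609 and 1380.3 in the CAT libraries. The beta subunits summed to 8071 and 7315 in the Zac1 libraries and 7569 and 8326 in the CAT libraries, and the focal adhesion genes to 7293 and 8706 in the Zac1 libraries and 8337 and 7764 in the CAT libraries. In these 3 sums the ranges of the groups overlapped. The other matrix receptors, led by Cd47, summed to 3021 and 2959 in the Zac1 libraries and 3547 and 3202 in the CAT libraries, so both Zac1 libraries were lower, and this sum was not tested. The syndecans summed to 3267 and 2739.9 in the Zac1 libraries and 2817 and 3124 in the CAT libraries, and the glypicans to 3062 and 1842 in the Zac1 libraries and 2117 and 1919 in the CAT libraries, again with overlap. Tags are counted once per transcript and not along its length, but their yield differs between genes, so the sums do not give a ratio of alpha to beta subunits.

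Groups that did not overlap were found in 6 of the 28 members. Itga5, Itgb4, Itgb3, Ddr1 and Pxn were higher in both Zac1 libraries than in both CAT libraries, and Cd47 was lower, against 17.2% of all genes tested as higher and 16.7% as lower. The 5 higher members are thus near the share in all genes. For 23 of the 28 members the Zac1 libraries differed from each other by more, on the log2 scale, than the group means did, and for 20 the CAT libraries did. These counts were not made over all genes. Single libraries differ more than group means do even where the plasmid has no effect, so the counts are not a trait of the members. Zac1 replicate 9 was above Zac1 replicate 12 in 18 members, against 48.3% of all genes, and CAT replicate 9 above CAT replicate 12 in 17, against 49.5%. The median size over the members was 0.39 between the Zac1 libraries, 0.32 between the CAT libraries and 0.15 between the groups. Between the groups it was 0.19 over all genes tested.

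The precision limits what these libraries can show. The 95% interval of the log2 fold change reached a median of 0.52 to either side, from 0.44 for Zyx to 2.33 for Cd44. For 22 members the interval lay within a 2-fold difference in either direction. The interval of the other members, Itga5, Itgb4, Itgb3, Pxn, Dag1 and Cd44, included changes of over 2-fold.

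**Figure D4:**
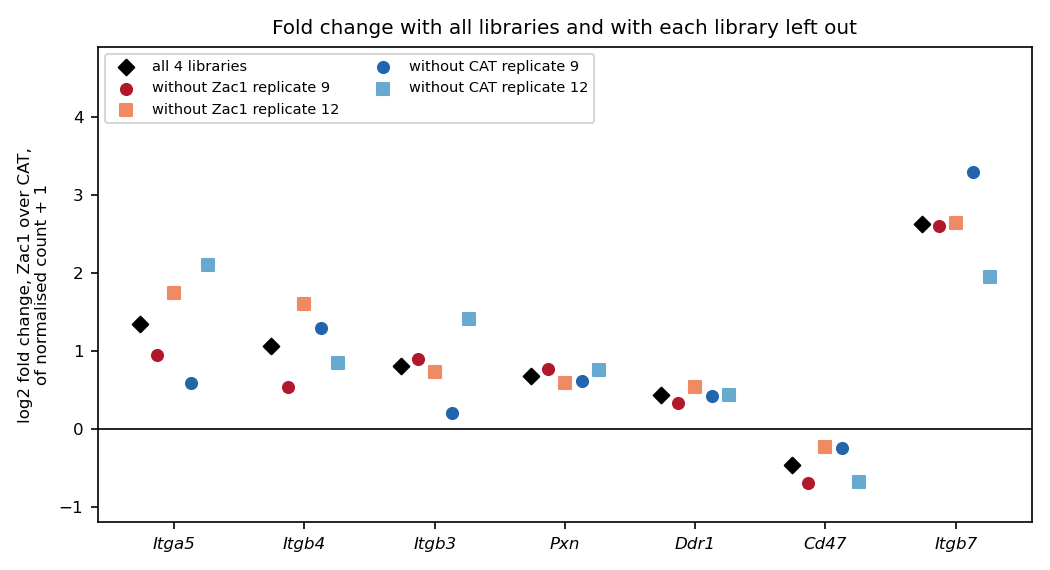
log2 fold change of Zac1 over CAT for the 6 members whose groups did not overlap and for Itgb7, with all 4 libraries (black diamonds) and with each library left out in turn. Pxn and Ddr1 vary least, Itga5 runs from 0.58 to 2.11 and Itgb3 from 0.20 to 1.41 depending on which CAT library is kept, and no value crosses 0.

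The wider adhesion machinery held a further integrin that passed. Of 13 further integrins and glypicans 4 were tested, and 1 rose and 0 fell (limma), against 0.962% of all genes tested as higher and 0% as lower. Itgb7, the partner of alpha4 and alphaE on leukocytes, had a normalised count of 45.7 and 44.5 in the Zac1 libraries, against 10.9 and 3.67 in the CAT libraries. The groups were well apart and the Zac1 libraries nearly equal, and the log2 fold change was 2.62 ± 0.59 (SE, n = 2 each; 95% interval 1.38 to 3.87; limma adjusted p = 0.0402).

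The log2 fold change of Itgb7 was 2.61 with Zac1 replicate 9 left out and 2.64 with Zac1 replicate 12 left out. Itgb7 did not pass in these fits, but nearly all genes lost their call there. The loss therefore says nothing about Itgb7 itself. Leaving out CAT replicate 12 lowered the value to 1.95 and ended the call, and leaving out CAT replicate 9 gave 3.30. The call also ended in limma with no trend (adjusted p = 0.0726) and under the GC correction (2.48, adjusted p = 0.0988). edgeR's quasi-likelihood test (adjusted p = 0.0287) and DESeq2 (adjusted p = 0.0314) called it on the recovered counts, and over all alternatives the adjusted p ran from 4.17e-04 to 0.818. Its alpha partners are Itga4, given above with 0 to 7 counts per library, and Itgae, which had a normalised count of 36.02 and 14.8 in the Zac1 libraries, against 11.1 and 13.2 in the CAT libraries, and did not pass (0.88, limma adjusted p = 0.955). Of 8 macrophage and leukocyte markers 2 were listed, and they summed to a normalised count of 10.7 and 7.90 in the Zac1 libraries and 12.1 and 7.45 in the CAT libraries.

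Of 55 further adaptors, kinases and actin linkers 47 were tested and 0 passed in either direction (limma), with a median log2 fold change of -0.04. At an unadjusted p under 0.05 limma gave 3 of them higher and 0 lower, which is near the 5.23% of all genes that were higher at that level. Sorbs3, vinexin, which binds vinculin, had a log2 fold change of 0.85 (95% interval 0.27 to 1.43), Fblim1, migfilin, which binds filamin, had 1.006 (0.26 to 1.75), and Trip6, a relative of zyxin, had 0.77 (0.031 to 1.504). With a library left out the log2 fold change of Sorbs3 ran from 0.50 (without CAT replicate 12) to 1.20 (without CAT replicate 9). That of Fblim1 ran from 0.44 (without Zac1 replicate 9) to 1.57 (without Zac1 replicate 12), and that of Trip6 from 0.17 (without CAT replicate 12) to 1.37 (without CAT replicate 9).

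Among 22 matrix ligands of these receptors, 12 were tested, and 1 rose and 0 fell (limma), where 0.962% of all genes passed as higher. Col1a1, a chain of type I collagen, had a normalised count of 223 and 79.0 in the Zac1 libraries, against 6.84 and 17.0 in the CAT libraries, a log2 fold change of 3.49 ± 0.51 (SE, n = 2 each; limma adjusted p = 0.00215). It did not pass in limma with no trend. Leaving out Zac1 replicate 9 gave 2.75 and leaving out Zac1 replicate 12 gave 4.23. Col1a1 did not pass in these 2 fits either, but nearly all genes lost their call there, so they cannot test its call. Col1a2, the other chain of that collagen, was below the minimum, with 3 and 7 recovered counts in the Zac1 libraries and 1 and 3 in the CAT libraries. Fn1, fibronectin, the ligand of the alpha5 and beta1 pair, was abundant at 2577 and 3160.2 in the Zac1 libraries, against 3078 and 3541 in the CAT libraries, and its log2 fold change was -0.21 (limma adjusted p = 0.983).

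Markers of other cell types were also summed. Fibroblast markers (3 of 8 listed) summed to a normalised count of 94.1 and 143 in the Zac1 libraries and 109 and 101 in the CAT libraries, and endothelial markers (4 of 6 listed) to 57.3 and 50.4 in the Zac1 libraries and 37.0 and 74.4 in the CAT libraries. Glial markers (5 of 8 listed) were higher in the Zac1 libraries, at 468 and 424 in these and 351 and 253 in the CAT libraries. Most of this was Mbp, a myelin gene, with a normalised count of 377 and 362 in the Zac1 libraries and 327 and 232 in the CAT libraries. Aldh1l1, an astrocyte marker, had a normalised count of 52.5 and 37.6 in the Zac1 libraries, against 18.7 and 10.2 in the CAT libraries. Its groups did not overlap, and its log2 fold change was 1.61 (95% interval 0.57 to 2.65; limma unadjusted p = 0.0046, adjusted p = 0.211). S100b, a glial marker, had 27 and 10 recovered counts in the Zac1 libraries and 0 in both CAT libraries. The part of these markers in the adhesion gene values was not tested.

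Promoter sequences from RefSeq (GRCm38.p6) were at hand for 26 of the 36 genes, as 35 windows around transcript starts. Itgb3, Itgb4 and Pxn had no window, while Itga9, Itgb8, Gpc3 and Gpc4, whose levels were not analysed here, had one. The motif GGGGCCCC, a palindrome reported as a binding sequence of Zac1, was in 0 of the 35, against 1.08% of all 32851 such windows. At that share, 35 windows would often hold no match, so the members are not set apart from other genes by this. No match says only that these letters are not in the windows scanned.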

How the data were processed

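Polyadenylated RNA of 2 Zac1 and 2 CAT libraries was profiled by DGE (2 µg of total RNA, 15 PCR cycles, per the labels' protocols). The authors deposited a normalized signal, which per the table's name is a TMM pseudocount, made with edgeR on build mm9 per the submitters' processing notes. No mapping tool and no tag assignment is given in the sources used here. Coordinates are not given, because the annotation used is of another build.

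To recover counts, edgeR's quantile adjustment was undone for the deposited signal (common dispersion 0.0364, sizes found from the values). The whole counts found returned 100% of the deposited values within 1e-06. A simpler check, that low values are whole multiples of a single step, was met by the Zac1 columns only, so the CAT counts rest on the inversion alone. Lines without a gene ID (5, up to 0.00897% of a library's counts) were left out, and the smallest total of a listed gene was 10 counts. Genes with a mean of at least 10 were tested (11433 of 12861) on the log2(value + 1) scale with limma 3.58.1 (R 4.3.3), a variance trend and no replicate term. Tests were two-sided and adjusted by Benjamini-Hochberg across the genes tested, with a threshold of 0.05. Fold changes on this scale understate changes of low genes. Intervals are limma's 95% intervals, those of single genes unadjusted. The p-values rest on 2 transfections per group and borrow from genes of similar level (limma prior df of 14.1).

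Alternatives were other pseudocounts, filters and scalings, limma without a trend, a replicate term, each library left out, edgeR 4.0.16 and DESeq2 1.42.0 on the recovered counts, and, chosen after the data had been seen, a lowess correction of each library for transcript GC content. The limma, edgeR and DESeq2 fits were also run on simulated counts with a single dispersion (0.0364) and no link to GC content. That setting lacks the spread and the GC link seen for Zac1 replicate 9, so it cannot show how the fits behave under them. Values per library are given for the 12 most abundant members, the 8 tested members with the smallest unadjusted p, members with groups apart and a log2 fold change of at least 0.5 in size, and members below the minimum; of the wider lists, genes that passed and those with an unadjusted p under 0.05 are named. The members and lists were chosen with earlier results of these data known.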

Additional observations from a re-analysis of the deposited data

How the results depend on the processing

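In the 15 alternatives the count of members passing as lower was 0, and the count passing as higher was 0 except for Itga5 with the replicate block and without CAT replicate 12 (1 in each). With a library left out it was 0 to 1. Over all genes the calls were 110 higher and 0 lower, and became 67 higher with a minimum mean of 50, where fewer genes were tested, 279 higher with the replicate block, and 1 to 154 higher and 0 to 5 lower with 1 library left out. The count was 1 when either Zac1 library was left out. The median of the members lay between 0.00996 and 0.19 with a library left out, the highest without Zac1 replicate 12. It was -0.0007 both with no filter on low values and with a minimum mean of 50.

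The numbers 9 and 12 are not said to mark a shared batch. Over 11433 genes the difference of replicate 9 from 12 correlated at 0.20 between the groups. The replicate block, a limma fit of the pairing, gave Itga5 an adjusted p of 6.40e-04 and also called Sorbs3 (0.0429) and Fblim1 (0.0261). For Itga5 the log2 difference of replicate 9 from 12 went opposite ways, at 0.81 in Zac1 and -1.52 in CAT. Its adjusted p in that fit thus does not show that the pairs agreed. What lies behind the correlation and these calls was not tested.

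Of the members 20 changed the sign of a fold change that had not passed, each at most 0.39 in size, and 8 never did. By scaling to equal totals Itga3 was at 0.047, Itga1 at 0.060, Itgb1 at 0.017, Sdc1 at 0.0094, Gpc6 at 0.030 and Zyx at 0.011. After GC correction Itga1 was at 0.098, Itgb1 at 0.049, Sdc3 at -0.011 and Gpc6 at 0.0089. edgeR gave 0.019 for Itga3, 0.0061 for Itga1 and 0.045 for Gpc6, and DESeq2 0.0097 for Itga3 and 0.036 for Gpc6. With a library left out Itgav ran from -0.11 to 0.30, Itga3 from -0.27 to 0.24, Itga7 from -0.12 to 0.42, Itga6 from -0.29 to 0.36, Itga1 from -0.16 to 0.16, Itgb1 from -0.17 to 0.078, Itgb5 from -0.31 to 0.028, Ddr2 from -0.50 to 0.30, Dag1 from -0.13 to 0.92, Cd44 from -1.46 to 2.14, Sdc1 from -0.16 to 0.057, Gpc1 from -0.091 to 0.62, Gpc6 from -0.48 to 0.42, Zyx from -0.17 to 0.068, Parva from -0.36 to 0.18, Ptk2 from -0.36 to 0.066, Ilk from -0.092 to 0.27, Vcl from -0.21 to 0.48 and Tln1 from -0.17 to 0.49. A fit without 1 library leaves a group with a single library, which is assumed to vary like the other group.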
